A study of Mus musculus with 25 samples.

Results

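The non-classical major histocompatibility complex (MHC) class I genes described here were H2-T23, H2-T22, H2-T24, H2-Q4, H2-Q6, H2-Q7, H2-M3, Cd1d1 and Mr1. They were taken by gene symbol from the deposited count table, and each of the 9 symbols matched 1 row among 55450 genes. The classical genes H2-K1 and H2-D1 were carried along as a reference only. RNA had been sequenced from 25 tumours of the B2905 line, also called M4, a mouse melanoma line implanted in C57BL/6 mice. All members passed the low-count filter, and none had a count of 0 in any tumour.

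Of 40 implanted mice, 30 were assigned to an antibody against the T cell receptor CTLA-4 and 5 to an isotype IgG2b antibody, once tumours averaged 75 mm3. Both antibodies were dosed at 10 mg/kg, with 2 doses a week for 2 weeks. The 5 IgG2b tumours are called controls. The 20 anti-CTLA-4 tumours were labelled by their course up to 10 to 11 days after the last dose, with 8 responders that shrank, 6 stable tumours and 6 non-responders that kept growing. All groups share the host strain and the implanted line, the controls carry an antibody, and an untreated arm was not analysed here. The comparisons ask how these genes differ between antibody-treated tumours and controls, and between tumours of different outcome under the same antibody.

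Class I molecules pair a heavy chain with beta-2 microglobulin at the cell surface. The classical heavy chains are highly variable and show intracellular peptides to CD8 T cells. The non-classical heavy chains vary little and serve narrower roles, such as showing leader peptides to natural killer receptors, formylated peptides or lipids to T cells, or microbial vitamin metabolites to mucosal-associated invariant T cells. Many of them are induced by interferon together with the classical genes.

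Libraries held between 8.76 and 34.3 M counts, and responders were the shallowest on average at 14.9 ± 4.74 M (SD, n = 8), against 25.5 ± 6.22 M for controls (SD, n = 5). Protein-coding genes took 86.4 to 88.4% of the counts in controls and 63.9 ± 18.8% in responders (SD, n = 8), where responder 1 had 23.8% and responder 5 had 87.0%. Library numbers in the labels ran by group, so library order and group cannot be told apart. The summed level of 7 melanocyte markers was 10319 to 17156 counts per M counts (CPM) in controls, 484 to 13724 CPM in non-responders, 107 to 253 CPM in stable tumours and 77.9 to 523 CPM in responders, and no marker was at 0 throughout a group. The leucocyte marker Ptprc averaged 64.5 ± 21.0 CPM in controls (SD, n = 5), 233 ± 129 CPM in non-responders (SD, n = 6), 488 ± 84.3 CPM in stable tumours (SD, n = 6) and 412 ± 107 CPM in responders (SD, n = 8).

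The members lie in 3 places. On chromosome 17 of GRCm38, H2-Q4 (chr17:35379617-35385290), H2-Q6 (chr17:35424850-35430055) and H2-Q7 (chr17:35439155-35443773) form the Q region, read on the plus strand. H2-T24 (chr17:36005695-36020560), H2-T23 (chr17:36029773-36032855) and H2-T22 (chr17:36037128-36042747) form the T region on the minus strand, and H2-M3 (chr17:37270220-37274484) lies beyond them on the plus strand. Cd1d1 (chr3:86995834-86999441) and Mr1 (chr1:155127277-155146814), both on the minus strand, lie outside the MHC. These positions span whole protein-coding genes of GENCODE release M21.

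Several members resemble each other, so their reads can be shared out by the counting program rather than assigned uniquely. Of the 50-base words in each gene's transcripts, 100% were found in no other gene for Mr1, 99.4% for H2-M3, 96.8% for H2-T24, 86.4% for H2-T23, 80.9% for Cd1d1, 78.2% for H2-Q4, 73.6% for H2-Q7, 68.0% for H2-Q6 and 65.5% for H2-T22. H2-T10 held 31.2% of the words of H2-T22, and H2-Q7 held 13.9% of the words of H2-Q6. The counts of H2-T23, H2-Q4, H2-Q6 and H2-Q7 were not whole numbers in all 25 tumours, while those of Mr1 were whole in every tumour. H2-Q4 held 12.3% of the words of H2-Q6, and H2-Q10 and H2-Q5 held 14.0% and 8.74% of those of H2-Q7. Levels of H2-T22 and of H2-Q4, H2-Q6 and H2-Q7 are therefore uncertain as to the gene. Values for the summed families, H2-T22 with H2-T10 and H2-Q6 with H2-Q7, are given beside them. These sums leave out H2-Q4, H2-Q5 and H2-Q10. They also leave out H2-T9, H2-Q8 and H2-Q9, which have no row in the count table.

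Promoters of 7 of the 9 members were matched in RefSeq for GRCm38.p6, and those of Cd1d1 and H2-T24 were not. The stretches below are shown because the classical genes and H2-Q7 share an X2-like match followed by a forward and then a reverse Y box. The other members shown carry other arrangements of the same matches. Capitals mark matches to ATTGG (Y box), TGACG (X2-like) and the ISRE-like pattern, named for the interferon-stimulated response element and made of a pair of GAAA words with any 2 bases between them. Motifs were searched on both strands.
H2-K1, chr17:34000334-34000403, minus strand: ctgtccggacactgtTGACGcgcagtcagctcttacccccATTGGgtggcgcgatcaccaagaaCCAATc
H2-D1, chr17:35262978-35263055, plus strand: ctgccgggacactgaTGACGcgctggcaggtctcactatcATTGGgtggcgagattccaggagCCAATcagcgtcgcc
H2-Q4, chr17:35379523-35379576, plus strand: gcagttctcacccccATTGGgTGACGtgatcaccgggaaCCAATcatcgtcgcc
H2-Q6, chr17:35424756-35424809, plus strand: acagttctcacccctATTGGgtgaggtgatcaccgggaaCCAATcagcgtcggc
H2-Q7, chr17:35439076-35439153, plus strand: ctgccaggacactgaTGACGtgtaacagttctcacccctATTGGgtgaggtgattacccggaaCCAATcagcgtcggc
H2-T22, chr17:36042750-36042845, minus strand: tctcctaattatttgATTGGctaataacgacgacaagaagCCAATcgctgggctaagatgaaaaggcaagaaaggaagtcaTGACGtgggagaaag
H2-T23, chr17:36032739-36032840, minus strand: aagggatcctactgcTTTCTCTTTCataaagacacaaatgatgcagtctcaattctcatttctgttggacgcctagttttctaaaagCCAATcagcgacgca
H2-M3, chr17:37270090-37270227, plus strand: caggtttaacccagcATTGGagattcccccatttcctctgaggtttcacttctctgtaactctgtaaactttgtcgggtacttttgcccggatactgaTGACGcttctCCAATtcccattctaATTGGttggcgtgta

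Each is read 5′ to 3′ on the gene's strand. X and Y boxes belong to the class I promoter element through which the transactivator NLRC5 acts, and ISRE and GAS (TTCNNNGAA) are the elements of interferon-activated factors. In the 250 bases before the start, a Y box was found in 6 of 7 members and in both classical genes, against 33.8% of 32851 RefSeq promoters. The X2-like letters were found in 4 of 7 members (H2-Q4, H2-Q7, H2-T22 and H2-M3) and in both classical genes, against 17.8% of promoters. ISRE-like letters were found in H2-T22 and H2-T23, against 2.98% of promoters, and a GAS in H2-M3, against 7.02%. A kB-like match (GGGANTTCC), named for the NF-kB family, was found in H2-Q4 only, against 1.43%. In Mr1 none of the 5 motifs was found in this window. Each search took exact letters only, so variant forms of an element are missed and a gene without a match may still carry one. In H2-K1, H2-D1 and H2-Q7 the X2-like letters came before a forward (ATTGG) and then a reverse (CCAAT) Y box. H2-Q6 has the same pair of Y boxes without them, and in H2-Q4 the letters stand 1 base after the first Y box. In H2-M3 the X2-like letters came before a reverse and then a forward Y box.

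**Figure D1:**
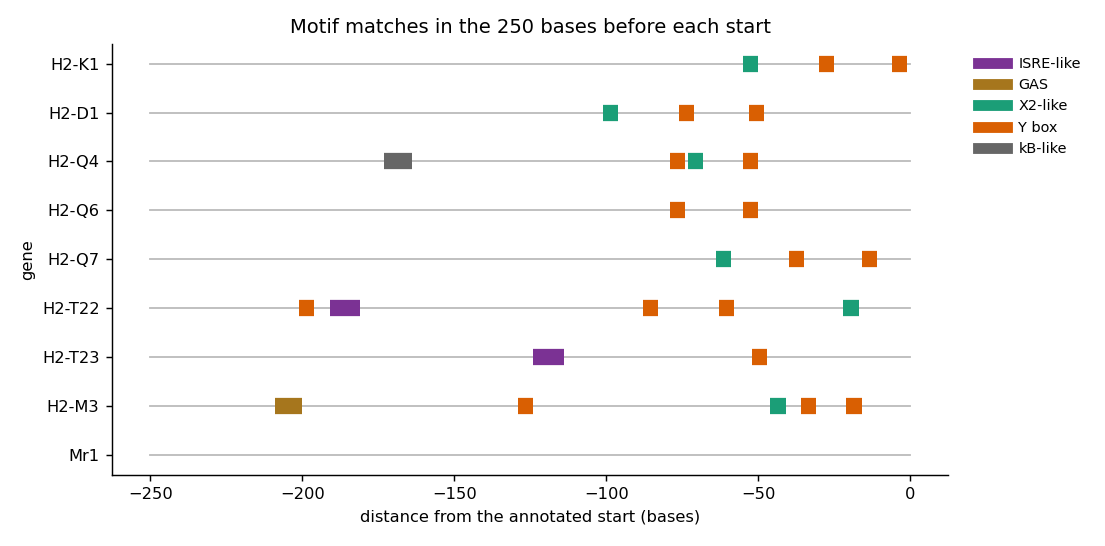
Position of each motif match (coloured blocks) in the 250 bases before the annotated start of 7 members and of H2-K1 and H2-D1, with distance from the start in bases on the horizontal axis. Y boxes appear in every gene shown except Mr1, and ISRE-like matches in H2-T22 and H2-T23. Only exact matches to each pattern are drawn, so variant forms of an element are not shown.

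Per length of exon, the classical genes stood above all members. The mean over 25 tumours was 814 CPM per kilobase for H2-D1 and 570 CPM per kilobase for H2-K1, each above the next gene in 25 of 25 tumours. H2-T23 followed with 129 CPM per kilobase and H2-Q4 with 121 CPM per kilobase. Those neighbours did not separate, since H2-T23 was above H2-Q4 in 9 of 25 tumours. H2-Q6 had 103 CPM per kilobase, H2-T22 67.5 CPM per kilobase and H2-Q7 49.9 CPM per kilobase, with H2-Q6 above H2-T22 in 20 tumours and H2-T22 above H2-Q7 in 19. H2-M3 (26.8 CPM per kilobase) was above H2-T24 (8.08 CPM per kilobase) in every tumour. Mr1 and Cd1d1 were lowest, with 4.70 and 4.44 CPM per kilobase, and Mr1 was the higher of the pair in 13 of 25 tumours.

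**Figure D2:**
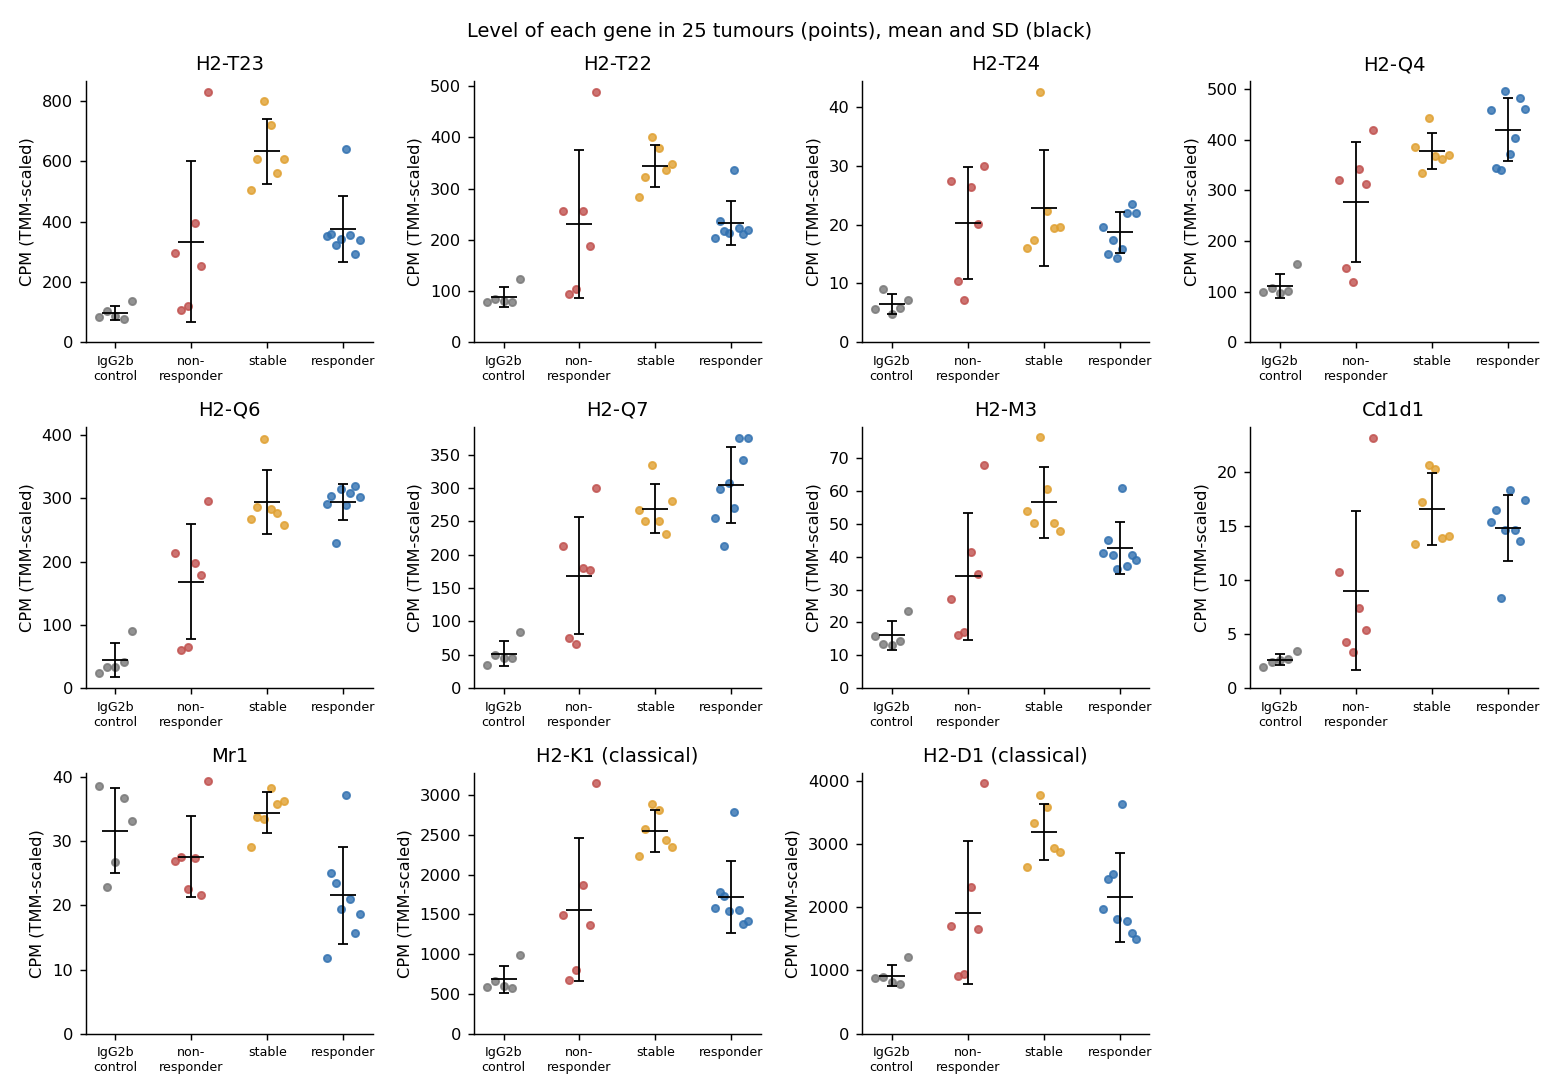
TMM-scaled CPM (linear axes from 0) of the 9 members and of H2-K1 and H2-D1 in 5 controls, 6 non-responders, 6 stable tumours and 8 responders, with 1 point per tumour and the mean and SD in black. All members but Mr1 have stable and responder tumours above every control, as do H2-K1 and H2-D1, and non-responders spread from the control range upward. How many of all genes separate in this way was not counted.

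Against controls, 8 of the 9 members rose in each of the 3 anti-CTLA-4 groups, and Mr1 did not. Values are fitted log2 fold changes from edgeR's quasi-likelihood F test with Benjamini-Hochberg adjustment over 18031 genes, and a gene is called where the adjusted p is under 0.05. In responders, 8 members rose and 1 fell, where 65.0% of all genes tested were called, 36.1% higher and 28.9% lower. The stable group had 8 that rose, where 41.8% of all genes were called, 22.2% higher and 19.6% lower. In non-responders, 8 rose, where 13.9% of all genes were called, 10.6% higher and 3.29% lower.

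The median log2 change of the 9 members was 1.91 in responders, 1.96 in the stable group and 1.64 in non-responders, beside 0.16, 0.02 and 0.04 over all genes tested. The 3 comparisons share the same 5 controls. The classical genes rose too, H2-K1 by 1.34, 1.90 and 1.19 and H2-D1 by 1.23, 1.79 and 1.06 in the same order. Melanocyte and leucocyte markers moved between the groups alongside the members, and their part in the result was not tested. In these bulk tumours, a change in the number of cells of a type and a change in RNA per cell cannot be told apart.

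**Figure D3:**
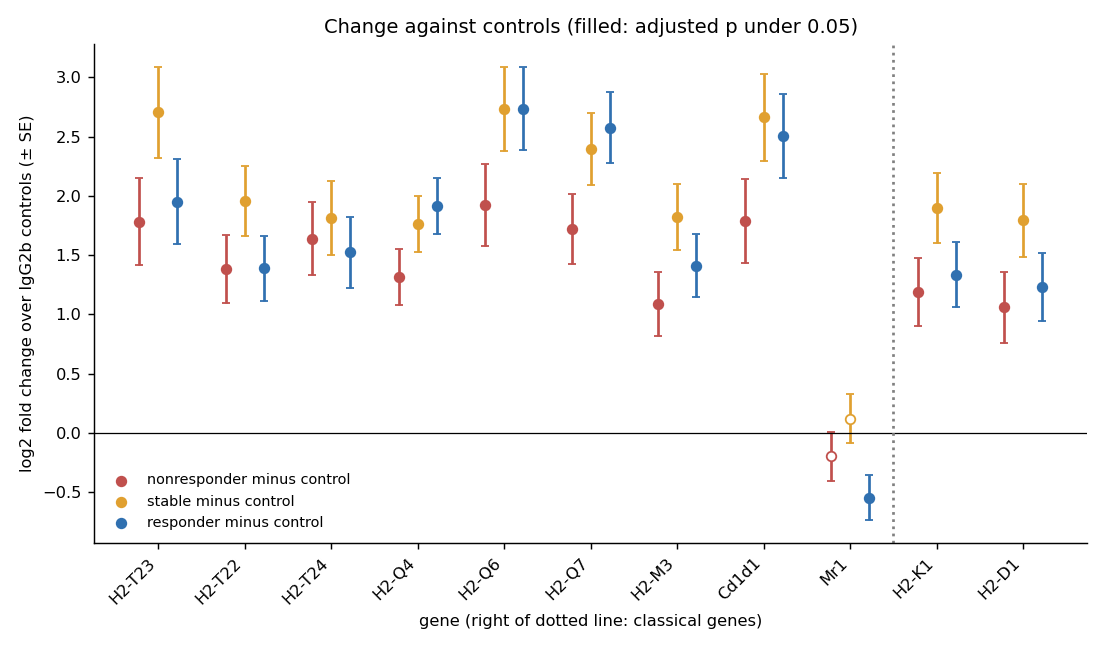
Fitted log2 fold change over controls (points, with SE bars) of 9 members and 2 classical genes in non-responders, stable tumours and responders, with filled points where the edgeR adjusted p was under 0.05. Mr1 is the only gene shown with open points or a value below 0.

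H2-T23 encodes the heavy chain of Qa-1, the ligand of the CD94 and NKG2 receptors. The controls had 83.0, 102, 86.6, 77.1 and 136 CPM. Non-responders ran from 106 through a median of 275 to 828 CPM, stable tumours from 505 through 607 to 798 CPM and responders from 292 through 346 to 639 CPM. Every stable and responder tumour was above every control, and 7 of the 8 responders were below every stable tumour, responder 5 being the exception. In non-responders, tumours 2 and 3 lay within the control range and tumour 6 was the highest of all 25. H2-T23 rose over controls by 2.71 (SE 0.38, edgeR adjusted p = 5.89e-06) in stable tumours, by 1.95 (SE 0.36, edgeR adjusted p = 5.81e-05) in responders and by 1.78 (SE 0.37, edgeR adjusted p = 0.002) in non-responders.

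H2-T22 is a ligand of a subset of gamma-delta T cells and holds no peptide. The controls had 78.4, 84.0, 80.4, 78.2 and 123 CPM. Non-responders ran from 94.95 through 222 to 489 CPM, stable tumours from 284 through 342 to 400 CPM and responders from 204 through 218 to 336 CPM. The order of the groups was that of H2-T23, again with responder 5 the only responder within the stable range. H2-T22 rose by 1.96 (SE 0.29) in stable tumours, by 1.39 (SE 0.27) in responders and by 1.38 (SE 0.29) in non-responders, with edgeR adjusted p of 1.13e-05, 0.000133 and 0.00205. Summed with its near copy H2-T10, the family rose by 1.94, 1.43 and 1.38 in the same order.

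H2-T24, the least abundant per kilobase of the T region members, had 5.67, 9.03, 4.77, 5.75 and 7.24 CPM in controls. Non-responders ran from 7.22 through 23.3 to 29.9 CPM, stable tumours from 16.1 through 19.5 to 42.5 CPM and responders from 14.4 through 18.5 to 23.5 CPM. The 3 treated groups overlapped widely, and 5 of 6 non-responders were above every control. H2-T24 rose by 1.82 (SE 0.31) in stable tumours, by 1.64 (SE 0.31) in non-responders and by 1.52 (SE 0.30) in responders, with edgeR adjusted p of 5.45e-05, 0.00107 and 0.000122.

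H2-Q6 and H2-Q7 encode Qa-2, which is made as membrane-anchored and as soluble forms. For H2-Q6 the controls had 23.1, 33.5, 33.1, 41.2 and 90.5 CPM. Non-responders ran from 59.3 through 188 to 296 CPM, stable tumours from 258 through 280 to 394 CPM and responders from 230 through 304 to 320 CPM. The responder and stable ranges lay on top of each other, unlike those of H2-T23. H2-Q6 rose by 2.74 (SE 0.35) in responders, by 2.73 (SE 0.36) in stable tumours and by 1.93 (SE 0.35) in non-responders, with edgeR adjusted p of 8.8e-07, 2.71e-06 and 0.000749.

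For H2-Q7 the controls had 34.1, 48.7, 44.9, 44.7 and 83.5 CPM. Non-responders ran from 66.1 through 179 to 300 CPM, stable tumours from 231 through 259 to 335 CPM and responders from 213 through 303 to 375 CPM. Control 5 was the highest control for both genes, and non-responders 2 and 3 were the lowest treated tumours. H2-Q7 rose by 2.57 (SE 0.30) in responders, by 2.40 (SE 0.31) in stable tumours and by 1.72 (SE 0.30) in non-responders, with edgeR adjusted p of 3.23e-07, 2.19e-06 and 0.000637. Summed as Qa-2, the pair had 95.5 ± 45.3 CPM in controls (SD, n = 5), 337 ± 179 CPM in non-responders (SD, n = 6), 564 ± 82.2 CPM in stable tumours (SD, n = 6) and 600 ± 81.5 CPM in responders (SD, n = 8). That sum rose by 2.65, 2.56 and 1.82 on the log2 scale in responders, stable tumours and non-responders.

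H2-Q4, the member of the Q region that encodes Qb-1, had 98.5, 107, 96.6, 101 and 154 CPM in controls. Non-responders ran from 119 through 317 to 419 CPM, stable tumours from 335 through 370 to 443 CPM and responders from 341 through 432 to 496 CPM. The 3 highest values among all tumours were responders 4, 7 and 8. H2-Q4 rose by 1.91 (SE 0.23) in responders, by 1.76 (SE 0.24) in stable tumours and by 1.31 (SE 0.24) in non-responders, with edgeR adjusted p of 5.28e-07, 3.95e-06 and 0.000749.

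H2-M3 presents peptides that begin with a formylated methionine. The controls had 15.8, 13.5, 13.0, 14.3 and 23.6 CPM. Non-responders ran from 16.0 through 30.9 to 67.9 CPM, stable tumours from 47.8 through 52.1 to 76.4 CPM and responders from 36.2 through 40.5 to 61.1 CPM. As with H2-T23 and H2-T22, responder 5 was the only responder above the lowest stable tumour. H2-M3 rose by 1.82 (SE 0.28) in stable tumours, by 1.41 (SE 0.26) in responders and by 1.09 (SE 0.27) in non-responders, with edgeR adjusted p of 1.48e-05, 7.29e-05 and 0.00855. Fitting only non-responders and controls, its non-responder difference was 1.06 (edgeR adjusted p = 0.076) and no longer called.

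Cd1d1 encodes CD1d, which presents lipids to natural killer T cells. The controls had 1.97, 2.43, 2.58, 2.68 and 3.41 CPM. Non-responders ran from 3.31 through 6.37 to 23.1 CPM, stable tumours from 13.3 through 15.6 to 20.7 CPM and responders from 8.32 through 15.0 to 18.3 CPM. Per kilobase it had the lowest mean of any member in controls, and every stable and responder tumour was above every control. Cd1d1 rose by 2.66 (SE 0.37) in stable tumours, by 2.51 (SE 0.36) in responders and by 1.79 (SE 0.36) in non-responders, with edgeR adjusted p of 4.58e-06, 3.09e-06 and 0.00157.

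Mr1, which presents vitamin B metabolites of microbes, was not called higher in any treated group. The controls had 38.6, 22.9, 26.8, 36.7 and 33.2 CPM. Non-responders ran from 21.7 through 27.1 to 39.3 CPM, stable tumours from 29.0 through 34.7 to 38.2 CPM and responders from 11.8 through 20.2 to 37.2 CPM. The control range overlapped that of each treated group, and responder 5 was again the highest responder. Mr1 fell by 0.55 (SE 0.19, edgeR adjusted p = 0.0153) in responders. The log2 difference from controls was 0.12 (SE 0.20, edgeR adjusted p = 0.681) in stable tumours and -0.20 (SE 0.20, edgeR adjusted p = 0.545) in non-responders. Without control 1 the responder difference was -0.47 (edgeR adjusted p = 0.0522), and with each library's protein-coding share as a covariate it was -0.05 and no longer called.

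By edgeR over all 25 tumours, the 3 Q region genes were the members called higher in responders than in non-responders. H2-Q7 rose by 0.85 (SE 0.26, edgeR adjusted p = 0.00968), H2-Q6 by 0.81 (SE 0.30, edgeR adjusted p = 0.0279) and H2-Q4 by 0.60 (SE 0.21, edgeR adjusted p = 0.0199). In this comparison 25.2% of all genes tested were called higher and 48.9% in either direction, so 3 of 9 members called is near the background share. The median log2 difference of the members was 0.32, beside 0.05 over all genes. The summed Qa-2 pair rose by 0.83 (SE 0.27, edgeR adjusted p = 0.0159).

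The other members did not pass the threshold in that fit. Cd1d1 differed by 0.72 (SE 0.31, edgeR adjusted p = 0.0534) and lay close to it, being called with DESeq2 (0.74, adjusted p = 0.0333), RLE factors, the stricter filter, protein-coding genes only and both limma fits, with adjusted p of 0.00498 to 0.0478. H2-M3 was called with limma on log2(RPKM + 1) (0.55, adjusted p = 0.0232) and log2(RPKM + 0.1) (0.58, adjusted p = 0.0318). H2-Q4 lost its call when only the groups compared were fitted (0.61, edgeR adjusted p = 0.0553), and H2-Q6 with no filter (0.74, edgeR adjusted p = 0.0552). In the fit over all tumours H2-M3 differed by 0.32 (SE 0.24), H2-T23 by 0.17 (SE 0.31) and H2-T22 by 0.01 (SE 0.25). H2-T24 differed by -0.11 (SE 0.27) and Mr1 by -0.35 (SE 0.18, edgeR adjusted p = 0.117). The groups overlapped for every member in at least 1 tumour, since non-responder 6 was within or above the responder range for all of them.

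Single non-responders moved these calls. Without non-responder 2, H2-Q4 had 0.47 (edgeR adjusted p = 0.0549) and H2-Q6 0.64 (edgeR adjusted p = 0.0651), which left 1 of 9 members called. Without non-responder 3, H2-Q6 had 0.64 (edgeR adjusted p = 0.0713). Without non-responder 6, 6 members were called, with H2-T23 at 0.68 (edgeR adjusted p = 0.0339), H2-M3 at 0.65 (edgeR adjusted p = 0.0139) and Cd1d1 at 1.27 (edgeR adjusted p = 0.000267) joining the Q region genes. Cd1d1 was also called without responder 3 (0.81, edgeR adjusted p = 0.0317), and Mr1 without responder 5 (-0.50, edgeR adjusted p = 0.00958).

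Non-responder 6 had the lowest melanocyte marker sum of its group (484 CPM) and the highest Ptprc (445 CPM), while non-responders 2 and 3 had melanocyte sums of 6954 and 13724 CPM and Ptprc of 118 and 84.1 CPM. The part of these markers in the differences was not tested. The protein-coding share of counts was at most 74.3% in 7 of 8 responders and at least 82.9% in every non-responder. With the protein-coding share added as covariate none of the 9 members was called in this comparison, at 0.86 for H2-Q7 (edgeR adjusted p = 0.0915), 0.77 for H2-Q6 (edgeR adjusted p = 0.175) and 0.42 for H2-Q4 (edgeR adjusted p = 0.286).

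Between responders and stable tumours only Mr1 was called, where 38.2% of all genes tested were called. Mr1 fell by 0.67 in responders (SE 0.18, edgeR adjusted p = 0.00874), and 7 of 8 responders were below every stable tumour. With the protein-coding share added as covariate its difference was -0.20 (edgeR adjusted p = 0.608). H2-T23 differed by -0.75 (SE 0.31, edgeR adjusted p = 0.0569) and H2-T22 by -0.57 (SE 0.25, edgeR adjusted p = 0.0698). The differences of H2-M3 (-0.41), H2-T24 (-0.29), Cd1d1 (-0.16), H2-Q4 (0.15), H2-Q7 (0.18) and H2-Q6 (0.00) did not pass either. The median over the members was -0.29, beside 0.01 over all genes. Without responder 5 both H2-T23 (-0.91, edgeR adjusted p = 0.019) and H2-T22 (-0.66, edgeR adjusted p = 0.0317) were called. Fitting only these groups, H2-T23 (edgeR adjusted p = 0.0135), H2-T22 (edgeR adjusted p = 0.0129) and H2-M3 (edgeR adjusted p = 0.0485) were called beside Mr1, and DESeq2 called H2-T23 (adjusted p = 0.0404). H2-T23 and H2-T22 were also called without non-responder 2, 3 or 6, which leave the difference itself as it was and enter through the shared estimate of spread, with edgeR adjusted p of 0.0168 to 0.0438.

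Between stable tumours and non-responders, edgeR called 0 of 9 members, where 14.9% of all genes tested were called, 7.08% higher and 7.86% lower. The unadjusted p was under 0.05 for 6 of them, and DESeq2 called 4. The log2 differences were 0.92 for H2-T23 (SE 0.34, edgeR adjusted p = 0.0645), 0.88 for Cd1d1 (SE 0.32, edgeR adjusted p = 0.0668), 0.81 for H2-Q6 (SE 0.31, edgeR adjusted p = 0.0847) and 0.73 for H2-M3 (SE 0.25, edgeR adjusted p = 0.0528). H2-Q7 had 0.68, H2-T22 0.58, H2-Q4 0.45, Mr1 0.32 and H2-T24 0.18, with a median of 0.68 beside -0.02 over all genes. For H2-T23, 5 of 6 non-responders were below every stable tumour and non-responder 6 was above all of them. Without non-responder 6, 7 members were called, all but Mr1 and H2-T24, with H2-T23 at 1.43 (edgeR adjusted p = 0.000885) and Cd1d1 at 1.43 (edgeR adjusted p = 0.00037). Without control 5, which enters through the spread, H2-Q6 (0.81, edgeR adjusted p = 0.0478) and H2-M3 (0.73, edgeR adjusted p = 0.0489) were called, and without responder 5 H2-M3 was (0.73, edgeR adjusted p = 0.0442).

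Since the classical genes also rose, the members were next expressed relative to the summed H2-K1 and H2-D1 of the same tumour. Relative to them, the Q region genes and Cd1d1 were highest in responders, H2-T23 was higher in every treated group than in controls, H2-M3 and H2-T22 were called in none of the 6 comparisons, and Mr1 was highest in controls. H2-M3 was 0.995 ± 0.0965% of the classical sum in controls (SD, n = 5), 0.989 ± 0.0965% in non-responders (SD, n = 6), 0.984 ± 0.116% in stable tumours (SD, n = 6) and 1.13 ± 0.156% in responders (SD, n = 8). H2-T22 was 5.54 ± 0.181%, 6.54 ± 0.803%, 6.02 ± 0.411% and 6.18 ± 0.894% in the same order. These ratios lay within about their own spread of each other for H2-M3, while its fitted level was 3.53-fold higher in stable tumours than in controls and that of H2-T22 was 3.88-fold higher.

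**Figure D4:**
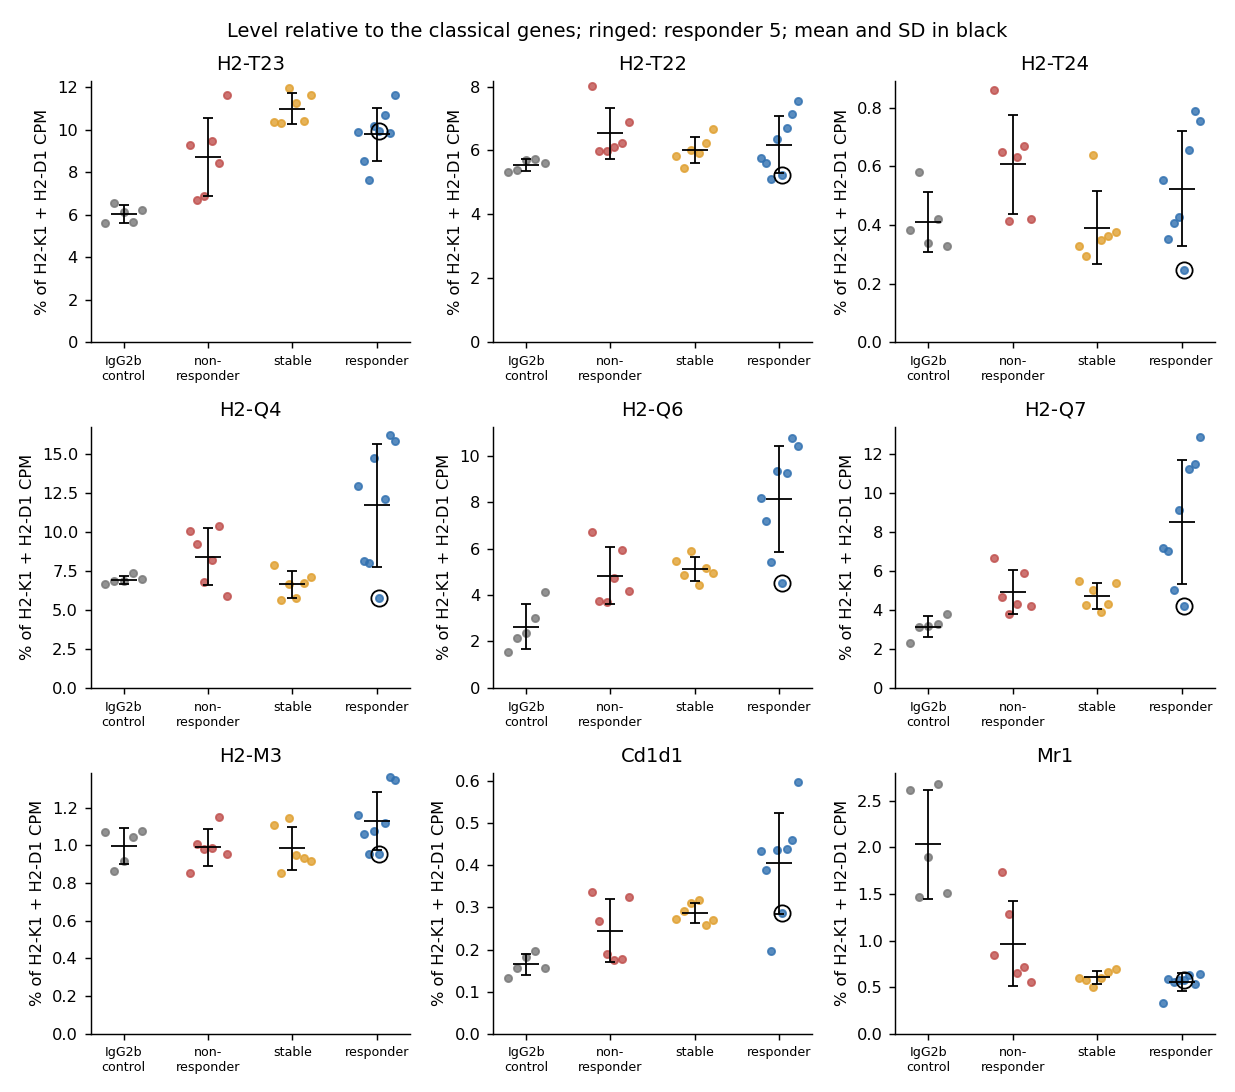
Level of each member as a percentage of the summed H2-K1 and H2-D1 CPM of the same tumour, with 1 point per tumour and the mean and SD in black. Responder 5, ringed, has the lowest responder value of H2-Q4, H2-Q6, H2-Q7, H2-T24 and H2-M3.

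The same comparison was tested with the summed count of the classical genes in place of the library size, over 18029 genes. That scale moves the median of all genes, to -1.07 for responders, -1.84 for stable tumours and -0.76 for non-responders against controls, so values are differences relative to the classical genes. In responders against controls 5 members were higher and 1 lower, where 67.1% of all genes were called, 8.58% up and 58.5% down. H2-Q6 rose by 1.62, H2-Q7 by 1.44, Cd1d1 by 1.29, H2-Q4 by 0.75 and H2-T23 by 0.70, and Mr1 fell by 1.87. With the protein-coding share as covariate H2-Q4 had 0.33 (edgeR adjusted p = 0.373) and lost its call. In stable tumours against controls H2-Q6 (0.96), H2-T23 (0.87), Cd1d1 (0.80) and H2-Q7 (0.59, edgeR adjusted p = 0.04) were higher and Mr1 (-1.75) lower, where 82.3% of all genes were called, 3.87% up and 78.4% down. In non-responders against controls H2-Q6 (0.87, edgeR adjusted p = 0.0171), H2-Q7 (0.65, edgeR adjusted p = 0.048) and H2-T23 (0.53, edgeR adjusted p = 0.0373) were higher and Mr1 (-1.08, edgeR adjusted p = 0.0112) lower, where 41.8% of all genes were called, 2.21% up and 39.6% down.

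Several of these calls were lost under other settings or without single tumours. H2-Q7 in stable tumours was lost with no filter (edgeR adjusted p = 0.0792) and with H2-K1 alone as the reference (0.52, edgeR adjusted p = 0.0528). Fitting only non-responders and controls, none of the 4 calls there held, with edgeR adjusted p of 0.104 to 0.259. H2-Q7 in stable tumours was also lost without control 1, 2, 3 or 4 or stable tumour 1, 3 or 6 (0.50 to 0.61, edgeR adjusted p of 0.0566 to 0.105). In non-responders, H2-T23 was lost without any of controls 1 to 4 or non-responders 1, 4, 5 and 6 (0.44 to 0.57, edgeR adjusted p of 0.0516 to 0.0845). H2-Q6 there was lost without control 1 (0.73, edgeR adjusted p = 0.0556), and Cd1d1 was gained without non-responder 3 (0.64, edgeR adjusted p = 0.0482). H2-Q7 there was lost without control 1 to 4, without non-responder 1, 4 or 5, without any stable tumour, and without responder 1, 2, 4 or 6 (0.54 to 0.69, edgeR adjusted p of 0.0513 to 0.12).

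Between outcomes, H2-Q4 was 11.7 ± 3.96% of the classical sum in responders (SD, n = 8), 8.43 ± 1.82% in non-responders (SD, n = 6), 6.64 ± 0.842% in stable tumours (SD, n = 6) and 6.95 ± 0.265% in controls (SD, n = 5). H2-Q7 was 8.54 ± 3.17%, 4.93 ± 1.12%, 4.73 ± 0.659% and 3.14 ± 0.534% in the same order, and H2-Q6 was 8.13 ± 2.28%, 4.82 ± 1.23%, 5.13 ± 0.516% and 2.64 ± 0.976%. Responders thus had the highest means and the widest spread. Responders 7 and 8 had the 2 highest ratios of all 3 genes among responders, and responder 5 the lowest, at 5.79% for H2-Q4, 4.52% for H2-Q6 and 4.22% for H2-Q7. Responder 5 was also the responder with the largest protein-coding share of counts.

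In responders against non-responders, H2-Q7 (0.79, edgeR adjusted p = 0.00945), H2-Q6 (0.75, edgeR adjusted p = 0.0126) and Cd1d1 (0.72, edgeR adjusted p = 0.0201) were higher relative to the classical genes and Mr1 (-0.79, edgeR adjusted p = 0.00949) was lower, where 39.5% of all genes were called, 8.14% up and 31.3% down, around a median of -0.36. In responders against stable tumours, H2-Q7 (0.85, edgeR adjusted p = 0.00734), H2-Q4 (0.82, edgeR adjusted p = 0.00698) and H2-Q6 (0.67, edgeR adjusted p = 0.0283) were higher, where 35.7% of all genes were called, 35.4% up and 0.316% down, around a median of 0.64. The 3 members called are thus near the background share and near the median of all genes. In stable tumours against non-responders, Mr1 (-0.67, edgeR adjusted p = 0.0216) and H2-T24 (-0.64, edgeR adjusted p = 0.0432) were lower, where 69.2% of all genes were called, 1.21% up and 68.0% down, around a median of -1.08.

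Fitting only the groups compared, none of the 4 calls against non-responders held, with edgeR adjusted p of 0.0575 to 0.104, nor did those of Mr1 and H2-T24 in stable tumours against non-responders (edgeR adjusted p of 0.0713 and 0.0798). With no filter Cd1d1 lost its call against non-responders (edgeR adjusted p = 0.063), H2-Q6 against stable tumours (edgeR adjusted p = 0.0553) and H2-T24 in stable tumours against non-responders (edgeR adjusted p = 0.0834). With the protein-coding share added as covariate none of the members was called relative to the classical genes in responders against non-responders, where H2-Q7 had 0.62 (edgeR adjusted p = 0.185), or against stable tumours, where it had 0.68 (edgeR adjusted p = 0.373). Cd1d1 lost its call against non-responders without non-responder 3 (0.66, edgeR adjusted p = 0.0503), Mr1 lost its call there without non-responder 2 (-0.54, edgeR adjusted p = 0.0588), and H2-Q4 gained one without responder 5 (0.58, edgeR adjusted p = 0.0336). Against stable tumours, H2-Q6 lost its call without stable tumour 2 or 4 or responder 7 or 8 (0.60 to 0.65, edgeR adjusted p of 0.0572 to 0.0677), and Cd1d1 gained one without responder 3 (0.60, edgeR adjusted p = 0.0445). In stable tumours against non-responders, H2-T24 lost its call without non-responder 1, 2, 4 or 5 or stable tumour 1, 2, 4, 5 or 6 (-0.62 to -0.51, edgeR adjusted p of 0.0579 to 0.115). Mr1 lost its call there without non-responder 2 (-0.42, edgeR adjusted p = 0.119) or 3 (-0.57, edgeR adjusted p = 0.0512), and H2-T23 gained one without non-responder 6 (0.43, edgeR adjusted p = 0.0264).

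Across the 25 tumours the members fell into blocks by how their levels ranked, given here as Spearman's rho of log2 CPM. The tumours share libraries, groups and depth, so rho is a description. H2-T23, H2-T22 and H2-M3 ran with the classical genes, with rho of 0.99, 0.97 and 0.97 against H2-K1. H2-Q4, H2-Q6 and H2-Q7 ran with each other, with rho of 0.92 to 0.95, and less closely with H2-K1, with rho of 0.61, 0.65 and 0.62. H2-Q6 shares sequence with both H2-Q4 and H2-Q7, and the part of shared reads in these values was not tested. Cd1d1 stood between both blocks, with rho of 0.85 against H2-K1 and 0.86 against H2-Q6. H2-T24 had rho of 0.61 to 0.71 with every gene of both blocks and Cd1d1. Mr1 had rho of 0.35 with H2-K1 and of -0.27 to -0.24 with the Q region genes.

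With group means removed, Pearson's r within groups was 0.98 for H2-T23 with H2-K1 and 0.72 for H2-Q4 with H2-K1, against 0.92 for H2-Q4 with H2-Q7. For Mr1 it was 0.02 with H2-Q4 and 0.51 with H2-K1. H2-T23 also had 0.98 with H2-T22. Pairs across the blocks ran from 0.61 for H2-Q7 with H2-D1 to 0.85 for H2-Q6 with H2-T22. H2-Q6 had 0.80 with H2-K1. Pairs of Q region genes ran from 0.90 to 0.94, so some pairs across the blocks came close to them within groups. H2-T24 had 0.74 to 0.82 with the Q region genes and 0.55 to 0.71 with the genes of the H2-K1 block.

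**Figure D5:**
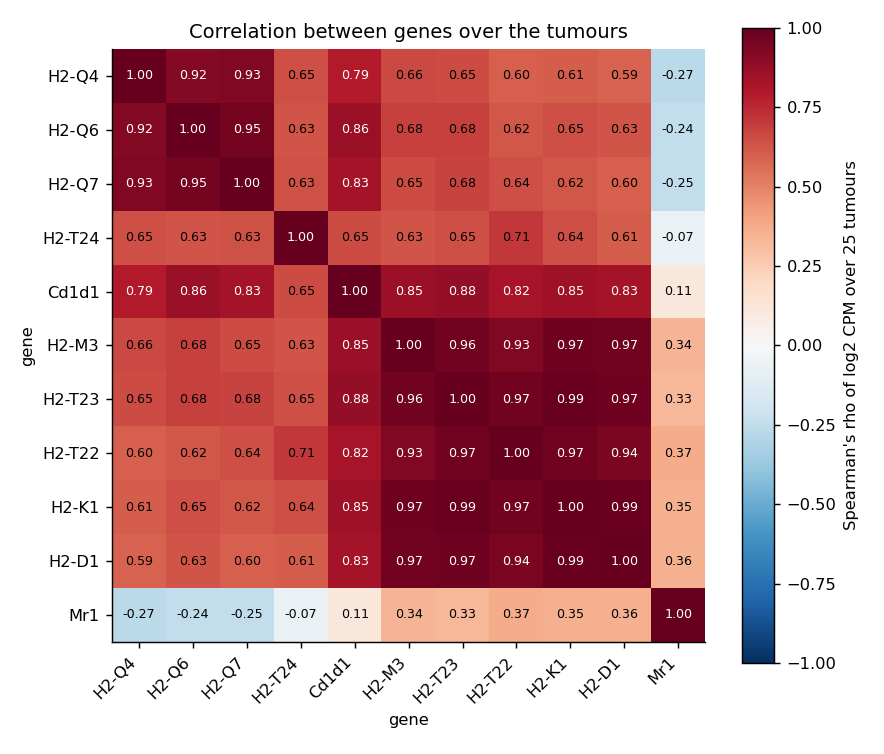
Spearman's rho of log2 CPM over 25 tumours for each pair of the 9 members and the 2 classical genes, on a colour scale from -1 to 1. H2-M3, H2-T23 and H2-T22 form a block with H2-K1 and H2-D1, the 3 Q region genes form another, and Mr1 has low or negative values with both.

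Among 13591 protein-coding genes, those most like each member over 25 tumours were named by the highest rho. For H2-T23 they were Il18bp, an interleukin-18 antagonist, and H2-DMb1, a class II peptide exchange subunit, both at 0.98. H2-T22 ran close to Psmb8, an immunoproteasome subunit, at 0.97. H2-T24 ran closest to Mx1 and Oasl2, interferon-induced antiviral genes, both at 0.93. H2-Q4 ran closest to Trafd1 and Gbp4, both at 0.94, and Gbp4 is an interferon-induced GTPase. H2-Q6 ran closest to Gpr132 and Ccdc88b, both at 0.94, and H2-Q7 to Nfkbid (0.97), an NF-kB regulator, and Gpr132 (0.96). H2-M3 ran closest to Cd74, the class II invariant chain, and Psap, the saposin precursor, both at 0.97. Cd1d1 ran closest to Gna15 (0.94) and Lat2 (0.93), signalling genes of blood cells. Mr1 ran closest to Dazap2 and Tspan3, both at 0.92.

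Classical class I molecules are loaded with peptide by an assembly line, and 21 of its genes and regulators were counted. The list centres on peptide loading, while H2-T22 holds no peptide, CD1d presents lipids and Mr1 presents vitamin B metabolites. Against controls, 12 rose and 0 fell in non-responders, 16 rose and 0 fell in stable tumours, and 13 rose and 3 fell in responders. Over all genes tested, 10.6% rose and 3.29% fell in non-responders, 22.2% and 19.6% in stable tumours, and 36.1% and 28.9% in responders. Nlrc5, the class I transactivator, rose in responders by 2.47 over controls and by 0.93 over non-responders (SE 0.25, edgeR adjusted p = 0.00409), and by 1.90 and 1.54 over controls in stable tumours and non-responders. Tap1 and Tap2, the peptide pump, rose over controls by 1.77 and 1.86 in responders, by 2.12 and 2.16 in stable tumours and by 1.54 and 1.34 in non-responders. Tapbp, the tapasin chaperone, rose by 1.88, 2.36 and 1.38 in the same order, as did the interferon factor Irf1 (2.23, 2.74 and 1.86).

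B2m, the light chain of every member, rose over controls by 1.29 in stable tumours (SE 0.37, edgeR adjusted p = 0.00711). Its log2 difference from controls was 0.20 (SE 0.34, edgeR adjusted p = 0.625) in responders and 0.66 (SE 0.37, edgeR adjusted p = 0.237) in non-responders. Between responders and stable tumours, 12 of the 21 genes were lower in responders and 2 higher, with B2m at -1.09 (edgeR adjusted p = 0.0125). B2m ran from 612 through a median of 1070 to 3562 CPM in responders and from 2569 through 3040 to 3602 CPM in stable tumours. Protein-coding genes took 63.9 ± 18.8% of counts in responders (SD, n = 8) and 86.2 ± 1.86% in stable tumours (SD, n = 6). No fit with that share as covariate is given for these 21 genes. Between responders and non-responders 3 were higher and 3 lower, and between stable tumours and non-responders 4 were higher and 0 lower. The shares of all genes were 20.5% higher and 17.8% lower in responders against stable tumours, 25.2% and 23.8% against non-responders, and 7.08% and 7.86% in stable tumours against non-responders. Macrophage markers moved with the list, with 4 of 5 lower in responders than in stable tumours (median -0.94). Their summed level was 379 to 666 CPM in controls, 513 to 1494 CPM in non-responders, 1388 to 2239 CPM in stable tumours and 638 to 1898 CPM in responders, no marker was at 0 throughout a group, and their part in these differences was not tested.

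Of 18 genes for receptors and responding cells, not all of which recognise the members, 15 passed the filter. By edgeR, 14 rose in responders over controls, 13 in the stable group and 13 in the non-responder group, and 0 fell, where 36.1%, 22.2% and 10.6% of all genes rose. Klrd1 and Klrc1, which encode CD94 and NKG2A and bind Qa-1, rose by 3.60 and 4.83 in responders, by 3.88 and 5.04 in stable tumours and by 2.72 and 3.90 in non-responders. Klrc1 was at 0.853 ± 0.356 CPM in controls (SD, n = 5) and at 24.1 ± 11.0 CPM in responders (SD, n = 8). Klrc2, which encodes the activating partner NKG2C, also rose in responders over non-responders, by 1.88 (SE 0.46, edgeR adjusted p = 0.00242). Zbtb16, the factor of natural killer T and other innate-like T cells, rose in responders by 1.63 over controls (SE 0.55, edgeR adjusted p = 0.0128) and by 1.64 over non-responders (SE 0.52, edgeR adjusted p = 0.0128).

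Trdc, the delta chain constant region of gamma-delta T cells, rose over controls by 2.60 in responders, 3.11 in stable tumours and 1.86 in non-responders, from 0.321 ± 0.114 CPM in controls (SD, n = 5). Cd8a rose by 3.95, 3.67 and 3.19 and Klrk1, the NKG2D receptor, by 2.94, 3.25 and 2.45 in that order. Between outcomes, 4 of 15 receptor genes rose in responders over non-responders, 2 rose in stable tumours over non-responders, one of them Trdc (1.25, edgeR adjusted p = 0.0382), and 0 differed between responders and stable tumours by edgeR, where 1 had an unadjusted p under 0.05. The 4 of 15 are near the 25.2% of all genes called higher there, and 7.08% were called higher in stable tumours over non-responders. The summed level of 5 T cell markers was 4.19 to 13.5 CPM in controls, 11.5 to 94.8 CPM in non-responders, 75.1 to 113 CPM in stable tumours and 43.1 to 129 CPM in responders, and its part in these differences was not tested.

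Of 10 genes for lipid loading and trafficking of CD1d, 5 rose in stable tumours over controls and 0 fell. In responders over controls 4 rose and 1 fell, and in non-responders 1 rose. Over all genes, 22.2% rose and 19.6% fell in stable tumours, 36.1% and 28.9% in responders, and 10.6% and 3.29% in non-responders. The list's counts of rising genes in responders and non-responders are near those shares. Psap, the precursor of the saposins that load lipids onto CD1d, rose by 1.84 in stable tumours (edgeR adjusted p = 8.98e-05) and by 1.17 in responders (edgeR adjusted p = 0.00211), beside 0.72 in non-responders (edgeR adjusted p = 0.139). Ctss, a lysosomal protease, rose by 3.95, 3.30 and 2.19 in the same groups. Between responders and stable tumours 4 fell in responders, among them Gm2a (-0.70) and Npc2 (-0.65), and 5 rose in stable tumours over non-responders, beside 17.8% of all genes lower and 7.08% higher in those comparisons. The macrophage marker sums given above moved with these counts too, and their part was not tested. No fit with the protein-coding share as covariate is given for this list either.

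Other class Ib and class I-like genes gave a mixed picture. Of 27 listed, 21 were in the count table and 10 passed the filter. Over controls 5 rose and 0 fell in non-responders, 6 rose and 1 fell in stable tumours, and 5 rose and 4 fell in responders, where 13.9%, 41.8% and 65.0% of all genes were called. H2-T10 and H2-Q10, which share sequence with H2-T22 and H2-Q7, rose in responders by 2.06 and 2.88 over controls and by 0.75 (SE 0.25, edgeR adjusted p = 0.016) and 1.29 (SE 0.29, edgeR adjusted p = 0.0012) over non-responders. Fcgrt, the neonatal Fc receptor, and Hfe, which governs iron uptake, both with class I folds, moved the other way in responders. Fcgrt fell by 0.52 against controls, by 0.67 against non-responders and by 0.76 against stable tumours, and Hfe fell by 0.61, 0.55 and 0.70. Responder 5, with 87.0% of counts on protein-coding genes, had the highest responder RPKM of both, 40.6 for Fcgrt and 20.1 for Hfe. The responder medians were 21.6 and 9.34 RPKM. No fit with the protein-coding share as covariate is given for these genes.

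Raet1e, a ligand of NKG2D, rose over controls in stable tumours by 1.53 (SE 0.48, edgeR adjusted p = 0.0116). H2-T3, H2-Q1 and H2-Q2 had 8, 16 and 35 counts over all 25 tumours and were not tested.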

How the data were processed

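RNA was analysed from 25 tumours, grouped by the treatment and outcome in their titles. The members, lists, tests and named genes were chosen with earlier results of these data known. The authors deposited expected counts per gene (estimated counts, not normalized), and 5.64% of the values are not whole. Fits used rounded values, since the plan had expected whole numbers. The authors also deposited RPKM values for 19522 symbols, 19518 of them unique, whose lengths and denominator no source used here gives. The submitters' processing notes name bcl2fastq 2.17, Trimmomatic, STAR 2.5.1, RSEM 1.2.22 and mm10, with no role or order. PolyA RNA is the labelled molecule while the labelled kit is one for stranded total RNA, which was not resolved. All 55450 gene identifiers are those of GENCODE M21 for GRCm38, used for names, positions and exon lengths.

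Counts were filtered with filterByExpr by group, scaled with TMM and fitted in edgeR 4.0.16 (R 4.3.3) with 4 group means over all 25 tumours. Robust quasi-likelihood F tests, two-sided, were adjusted by Benjamini-Hochberg over 18031 genes. A second fit used the H2-K1 plus H2-D1 count as the library size. CPM are per M counts of the TMM-scaled library, and log2 CPM used a prior count of 2. Each library is 1 tumour of a mouse, and p-values measure the spread between these tumours. Tested on simulated data (18031 genes, 200 changed), the fit found 56.5% of 2-fold and 83.0% of 4-fold changes in responder minus non-responder, 55.0% and 84.5% in responder minus stable, and 48.0% and 80.5% in responder minus control. Of its calls 5.04 to 8.15% were false, above the 5% aimed at.

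Named were the 9 members, the 2 classical genes, the 2 genes most like each member (protein-coding, mean of at least 1 CPM), and preset genes of the lists, of which some are not reported here. Alternatives were DESeq2 1.42.0, RLE factors, no and stricter filters, only the groups compared, the protein-coding share as covariate, protein-coding genes only, summed paralogs, limma 3.58 on log2(RPKM + 1) and log2(RPKM + 0.1), H2-K1 or H2-D1 alone, and leaving out each tumour. Promoters are from RefSeq.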

Additional observations from a re-analysis of the deposited data

Results flagged for a closer look

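In groups of 4 to 10 tumours, the highest or lowest value was compared with its nearest neighbour, as a share of the group's range. Of 44 groups of values, 16 had such a tumour standing apart, where chance gives about 1 in 20 groups. Genes that run together repeat the same tumours, so these are not independent.

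Responder 5 stood above the other responders for H2-T23 (639 CPM, next 360 CPM), H2-T22 (336 CPM, next 237 CPM), H2-M3 (61.1 CPM, next 44.95 CPM) and H2-K1 (2786 CPM, next 1784 CPM). It was the responder with 87.0% of counts on protein-coding genes. Control 5 stood above the other controls for H2-T22 (123 CPM, next 84.0 CPM), H2-Q4 (154 CPM, next 107 CPM), H2-Q6 (90.5 CPM, next 41.2 CPM), H2-M3 (23.6 CPM, next 15.8 CPM), H2-K1 (986 CPM, next 664 CPM) and H2-D1 (1211 CPM, next 894 CPM). It also had the highest Ptprc of the controls, at 97.5 CPM, and the highest sum of the 5 T cell markers, at 13.5 CPM. The part of these markers in its values was not tested.

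Stable tumour 3 stood above the other stable tumours for H2-T24 (42.5 CPM, next 22.3 CPM) and H2-Q6 (394 CPM, next 287 CPM). Non-responder 6 stood above the other non-responders for Cd1d1 (23.1 CPM, next 10.7 CPM) and Mr1 (39.3 CPM, next 27.5 CPM). Responder 3 stood below the other responders for H2-Q6 (230 CPM, next 290 CPM) and Cd1d1 (8.32 CPM, next 13.6 CPM).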

How the results depend on the processing

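No paired analysis was possible because the labels give each tumour its own identifier and no replicate numbers shared between groups. For levels against controls, the members called were 9 in responders (8 to 9 leaving out 1 tumour), 8 in stable tumours (8 to 8) and 8 in non-responders (8 to 8), and 7 to 9 over the other alternatives. Limma on RPKM tests 8 members since H2-Q4 is not in that table, H2-M3 was lost in non-responders fitting only the groups compared, and Mr1 in responders with the protein-coding share as covariate. Between outcomes, 3 were called in responders against non-responders (1 to 6 leaving out 1 tumour), 0 with the share, 2 with no filter or only the groups compared, 3 with summed paralogs, and 4 with DESeq2, RLE factors, the stricter filter, protein-coding genes only or either limma fit. With summed paralogs, H2-Q6 and H2-Q7 share the same test of their sum, and that test is counted for both. In responders against stable tumours 1 was called (1 to 3), and 2 with DESeq2, 4 fitting only the groups compared and 0 with the share. In stable tumours against non-responders 0 were called (0 to 7), and 4 with DESeq2, 1 with RLE factors, 2 with the stricter filter, 1 with protein-coding genes only and 3 with limma on log2(RPKM + 1) or log2(RPKM + 0.1). Relative to the classical genes, responders against non-responders gave 4 (3 to 5), 3 with no filter and 0 fitting only the groups compared or with the share. Responders against stable tumours gave 3 (2 to 4), 2 with no filter, 4 fitting only the groups compared and 0 with the share. Stable tumours against non-responders gave 2 (0 to 3), 1 with no filter and 0 fitting only the groups compared. Non-responders against controls gave 4 (1 to 5), 2 with no filter, 0 fitting only the groups compared, 2 with H2-K1 alone and 3 with H2-D1 alone or the share. Responders and stable tumours against controls gave 6 (6 to 6) and 5 (4 to 5), and 5 with the share in responders and 4 with no filter or with H2-K1 alone in stable tumours.

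No called difference changed sign. Uncalled ones did so without a filter for H2-T22 in responders against non-responders (-0.062), H2-Q6 in responders against stable tumours (-0.044) and Mr1 in stable tumours against controls (-0.023). With the share as covariate they did so for Mr1 in responders against non-responders (0.11), for H2-Q4 and H2-Q6 in responders against stable tumours (-0.038 and -0.042), and relative to the classical genes for H2-T22 (-0.0028) and Mr1 (0.20) there. With limma H2-T24 had 0.15 and 0.18 in responders against non-responders and 0.032 and 0.035 against stable tumours. With H2-D1 alone H2-M3 had 0.038 in stable tumours and 0.053 in non-responders against controls. Leaving out 1 tumour, the range crossed 0 in responders against non-responders for H2-T23 (-0.013 to 0.68), H2-T22 (-0.15 to 0.37) and H2-T24 (-0.29 to 0.032), in responders against stable tumours for H2-Q6 (-0.033 to 0.10) and in stable tumours against non-responders for H2-T24 (-0.095 to 0.32). Relative to the classical genes it did so for H2-T22 in responders against stable tumours (-0.0089 to 0.072), for H2-Q7 (-0.13 to 0.047) and H2-M3 (-0.056 to 0.041) in stable tumours against non-responders, for H2-T24 (-0.26 to 0.087) and H2-M3 (-0.065 to 0.021) in stable tumours against controls and for H2-M3 in non-responders against controls (-0.057 to 0.030). The causes were not tested. Every member had at least 53 counts in every tumour.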

Other observations

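Among the listed class Ib genes that are no members, H2-M2 had the largest increase over controls. It was chosen for mention after its values were seen. It had 1.45 ± 1.08 CPM in controls (SD, n = 5), 28.5 ± 28.3 CPM in non-responders (SD, n = 6), 102 ± 14.4 CPM in stable tumours (SD, n = 6) and 65.7 ± 31.7 CPM in responders (SD, n = 8). The controls were all below every treated tumour, the highest control being 3.36 CPM and the lowest non-responder 4.55 CPM. By edgeR it rose over controls by 6.17 in stable tumours (adjusted p = 8.21e-07), by 5.54 in responders (adjusted p = 3.75e-07) and by 4.34 in non-responders (adjusted p = 0.000436). It also rose over non-responders, by 1.83 in stable tumours (adjusted p = 0.017) and by 1.199 in responders (adjusted p = 0.0387).

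The authors' RPKM table gives other class I loci than their count table. H2-T9 and H2-Q8 are rows of the RPKM table and not of the count table, and H2-Q4 is a row of the count table only. In all 25 tumours H2-T9 had 1.07 to 1.09 times the RPKM of H2-T22, and H2-Q8 had 1.01 to 1.31 times that of H2-Q6. H2-Q1 had 16 counts over all tumours in the count table but 4.76 ± 1.75 RPKM in controls (SD, n = 5) and 25.8 ± 9.05 RPKM in responders (SD, n = 8). H2-Q2 had 35 counts in all, and 2.51 ± 0.858 RPKM in controls (SD, n = 5) and 42.8 ± 24.1 RPKM in stable tumours (SD, n = 6). The cause of these differences between the tables was not tested.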
